A study of Homo sapiens with 15 samples.

Results

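The core cardiac transcription factors are the DNA-binding proteins that specify heart muscle, and 10 of their genes were followed here: GATA4, GATA5 and GATA6, NKX2-5, TBX5 and TBX20, MEF2C, HAND1 and HAND2, and IRX4. They were chosen by name, as the rows of the count and TPM tables whose Ensembl identifier carries one of these symbols in GENCODE, and all 10 were found among the 48777 genes listed. Levels are given in TPM, which scales reads by gene length and by library. H1, an established human embryonic stem cell line, was differentiated towards cardiac progenitors on a matrix of the laminins LN-521 and LN-221, and bulk RNA-seq was done on days 0, 4, 9, 11 and 20 with 3 libraries per day, 15 in all. Day 0 was the undifferentiated line in Nutristem medium. The labels give both laminins for every group, whereas in the study's methods the undifferentiated line is kept on LN-521 and moved to both on day 0, so the matrix of the day 0 libraries is uncertain. By the treatment protocol, CHIR99021, a GSK3 inhibitor that activates Wnt signalling, was added to the confluent cells on day 4 for 24 hours in basal medium with B27 lacking insulin, and IWP2, an inhibitor of Wnt secretion, from day 7 for 2 days. The growth protocol of the same samples gives earlier days for both compounds, and the study's methods list day 7 where the labels give day 9. The labels were used here. All libraries come from 1 cell line, and no cells were sorted.

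These factors bind one another and share target enhancers, and together they switch on the genes of the contractile apparatus. GATA, HAND and T-box factors act early in the cardiac mesoderm, NKX2-5 marks committed progenitors, MEF2C activates muscle genes, and IRX4 is restricted to the ventricle. Several have roles outside muscle, since GATA4 and GATA6 also act in endoderm and HAND1 in extra-embryonic tissues and mesenchyme.

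Promoter sequences are shown for 3 members, the related genes HAND1 and HAND2, which were on by day 9, and IRX4, which was the last to come on. The RefSeq table (GRCh38.p14) matched 7 of the 10 members, and each sequence runs 5′ to 3′ from 250 bases before to 50 after an annotated start. HAND1 lies at chr5:154478178-154478477, HAND2 at chr4:173530180-173530479 and IRX4 at chr5:1886896-1887195, all on the minus strand. Capitals mark matches, on either strand, to a GATA motif (AGATAA or TGATAA), an NKX2 motif (AAGTG), a T-box motif (AGGTGT) or an E-box (CANNTG), the letters bound by HAND and other helix-loop-helix factors.
HAND1: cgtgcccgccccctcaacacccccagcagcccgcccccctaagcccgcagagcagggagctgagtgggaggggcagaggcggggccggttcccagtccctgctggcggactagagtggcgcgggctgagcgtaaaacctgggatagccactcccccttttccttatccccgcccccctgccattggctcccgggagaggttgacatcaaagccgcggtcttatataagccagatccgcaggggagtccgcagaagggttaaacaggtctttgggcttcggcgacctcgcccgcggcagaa
HAND2: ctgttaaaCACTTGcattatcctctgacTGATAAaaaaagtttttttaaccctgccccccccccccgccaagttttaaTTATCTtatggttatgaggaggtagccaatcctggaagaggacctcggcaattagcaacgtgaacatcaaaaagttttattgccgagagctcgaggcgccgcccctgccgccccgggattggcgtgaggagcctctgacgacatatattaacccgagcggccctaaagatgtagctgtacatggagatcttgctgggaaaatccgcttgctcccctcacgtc
IRX4: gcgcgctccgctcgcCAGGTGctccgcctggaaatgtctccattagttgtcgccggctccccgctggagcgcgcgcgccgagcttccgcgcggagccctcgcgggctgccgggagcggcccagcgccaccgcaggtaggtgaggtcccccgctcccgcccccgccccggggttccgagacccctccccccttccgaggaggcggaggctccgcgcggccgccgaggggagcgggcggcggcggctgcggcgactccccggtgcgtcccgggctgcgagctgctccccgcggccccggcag
The HAND2 window held 2 GATA motifs and 1 NKX2 motif that overlaps its 1 E-box, the IRX4 window held 1 E-box, and the HAND1 window held none of these letters. Of 35116 promoters of this length, 16.3% hold the GATA motif, 43.1% the NKX2 motif, 11.4% the T-box motif and 68.7% an E-box. Of the other members matched, GATA6 had 1 E-box, MEF2C had 3 NKX2 motifs and 1 E-box, and TBX5 and TBX20 had no match in the first promoter listed. A match of letters is not a bound site.

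The libraries held 11990302 to 33469703 counts (median 22867831). Libraries are named by the plate in their label, and values below stand in the order plate 2, plate 6 and the library without a plate number on day 9, plates 2, 5 and 6 on day 11, and plate 2, the library labelled 2_3 and plate 6 on day 20. What is called plate 6 here is labelled 6_1 on days 9 and 20 and 6 on day 11. The labels do not say whether this is the same plate. The day 20 library 2_3 stood apart, with an RNA integrity number of 6.1 against 8.8 to 10 in the others. It also had a median of 3.05 TPM over 252 protein-coding genes, against 0 and 0.152 TPM in plates 2 and 6 of day 20. These genes were chosen for having almost no reads on days 0 to 11, so only the day 20 libraries can be compared. The labels were checked against fixed markers. The 5 pluripotency markers (POU5F1, NANOG, SOX2, TDGF1 and DNMT3B) summed to between 4003 and 6100.3 TPM on days 0 and 4 and to between 31.5 and 66.1 TPM on day 20. The 6 cardiomyocyte markers (MYH6, TNNT2, ACTN2, MYL7, NPPA and TNNI1) summed to between 9.46 and 15.05 TPM on days 0 and 4, 196 to 1315 on day 9, 3766 to 20975 on day 11 and 4971 to 21695 on day 20. Other lineages were present too, since 9 endoderm and yolk sac markers summed to between 669 and 20255 TPM and 5 mesenchymal markers to between 1109 and 21724 TPM on day 20. On days 9 to 20, 5 endothelial markers summed to between 64.2 and 247 TPM and 6 epicardial markers to between 23.1 and 396 TPM, and 5 mesoderm markers summed to between 19.1 and 50.4 TPM on day 9. The endothelial sum was already 98.6 to 159.8 TPM on days 0 and 4, with EGFL7 alone at means of 98.4 and 137 TPM. The sum alone therefore does not show endothelial cells. PECAM1 averaged 0.238 TPM on day 4 and 0.859, 4.83 and 3.04 TPM on days 9, 11 and 20. CDH5 averaged 0.159 TPM on day 4 and 2.15, 21.2 and 5.76 on those later days. TIE1 went from 6.82 TPM on day 4 to 1.41, 9.84 and 4.42. On day 11 PECAM1, CDH5 and TIE1 were highest in plate 5, at 12.7, 52.5 and 25.0 TPM. The epicardial sum was 6.06 to 19.4 TPM on days 0 and 4, with UPK3B at means of 12.3 and 6.57 TPM. UPK3B averaged 0.754 TPM on day 9. BNC1 had the highest mean of that list on days 9, 11 and 20, at 50.2, 64.8 and 104 TPM, against 0.439 on day 4. TCF21 went from 0.0492 TPM on day 4 to 6.69 on day 9, while ALDH1A2 stayed under 1 TPM on days 9 and 11. The epicardial sum alone does not show epicardial cells either. In such bulk samples fewer cells of a type and less RNA per cell cannot be told apart.

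The first question was whether any member was on before differentiation began. On days 0 and 4 the 10 members lay between 0 and 2.68 TPM in all 6 libraries. IRX4 and GATA5 stood highest, at 2.15 ± 0.462 and 2.35 ± 0.134 TPM (SD, n = 3) on day 4. TBX5 was lowest, with 5 reads over the 3 libraries of day 0 and 3 reads over those of day 4. Only GATA5, MEF2C and IRX4 had enough reads to be tested between these days, by edgeR's quasi-likelihood test, and none was called in either direction (0% of the 20964 genes tested were called higher and 0% lower). None of the 3 had an unadjusted p under 0.05, by edgeR or by DESeq2, and their edgeR adjusted p lay at 0.885, 0.934 and 0.995. IRX4 differed by 0.01 on the log2 scale between day 4 and day 0, with a 95% interval from -0.67 to 0.69.

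By day 9, 9 of the 10 members were on. Onset was set at the first day on which every library reached 1 TPM and the edgeR test against day 4 called the gene higher at an adjusted p under 0.05, and GATA4, GATA5, GATA6, NKX2-5, TBX5, TBX20, MEF2C, HAND1 and HAND2 all met it on day 9, where 24.3% of the 21252 genes tested were called higher. The median log2 fold change of the 10 members was 8.27, beside 0.01 for all genes. The largest edgeR adjusted p among the 9 was 9.77e-05, for NKX2-5, and for each of the 9 the lowest day 9 library was above the highest library of days 0 and 4. Since 5 days separate these samples, the order of onset inside this window was not measured. In place of it the members were ordered by how much of their highest day mean was reached on day 9, as a description.

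**Figure D1:**
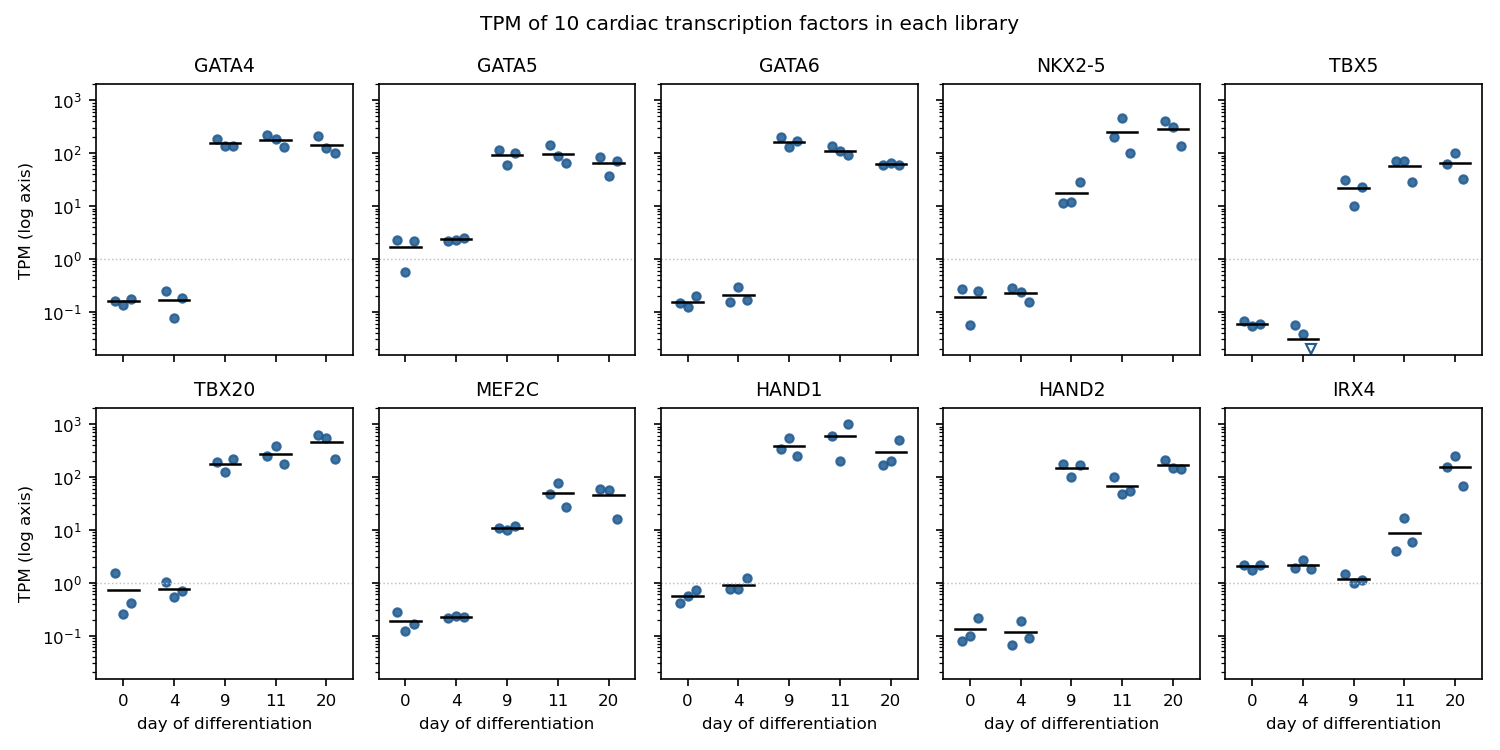
TPM (log axis) of the 10 members in each of 15 libraries by day of differentiation; points are libraries, bars are means of 3, the dotted line is 1 TPM, and the open triangle is a TBX5 value of 0 drawn at the lower edge. The 9 members other than IRX4 stepped up between days 4 and 9, whereas IRX4 stayed between 0.976 and 1.44 TPM on day 9 and reached 68.7 to 248 TPM on day 20.

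In that order GATA6 came first, with 100% of its highest day mean on day 9, followed by GATA5 with 93.3%, HAND2 with 88.1% and GATA4 with 86.1%. HAND1 had reached 63.8%, TBX20 38.4% and TBX5 32.7%. MEF2C with 21.2% and NKX2-5 with 6.03% were the least advanced of the 9, and IRX4 stood at 0.752%. In absolute level, HAND1 was the highest member on day 9 at 381 ± 158 TPM (SD, n = 3) and ranked 248 of 18894 protein-coding genes. TBX20, GATA6, GATA4 and HAND2 followed at means of 177, 166, 155 and 148 TPM. The ranges of their libraries overlapped, and the differences among these 4 were not tested. GATA5 stood at 92.3 ± 27.8 TPM, while TBX5, NKX2-5 and MEF2C lay between 9.84 and 31.7 TPM in every library of that day.

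**Figure D2:**
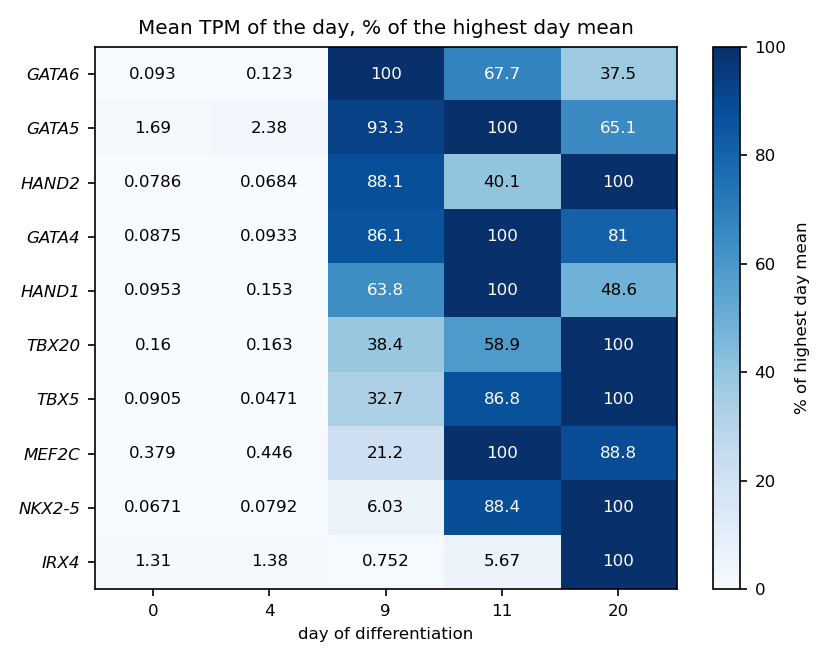
Mean TPM of each day (3 libraries) as a percent of the highest day mean of the same gene, with members ordered by onset day and then by the percent reached on the onset day. GATA6, GATA5, HAND2 and GATA4 were at 86.1% or more on day 9, whereas NKX2-5 stood at 6.03% and IRX4 at 0.752%.

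The second question was which members had reached a plateau on day 9. A plateau was taken to need 95% intervals of the log2 fold change within -1 and 1, both for day 11 and for day 20 against day 9. None of the 10 members met this. NKX2-5, MEF2C and IRX4 were rising, since each was called higher in at least 1 of the 2 comparisons. GATA6 was falling, and the other 6 were not resolved by 3 libraries per day. GATA4 met the rule when library 2_3 of day 20 was left out or when all 15 libraries shared one fit. It also met it with limma on log2(TPM + 1) or on log2(TPM + 0.1).

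On day 11 against day 9, 2 of the 10 members were called higher, NKX2-5 and MEF2C, where 1.39% of 20679 genes were called higher. No member was called lower by edgeR, where 1.00% of genes were, although 2 had an unadjusted p under 0.05 in that direction, and DESeq2 called 1. The count of 2 fell to 0 when any library of day 9 or the plate 2 library of day 11 was left out, was 3 without plate 5 of day 11 and was 2 without plate 6. Over all genes, 0 of 21520 were called higher without plate 2 of day 9, against 288 with all 6 libraries. The number was 287 of 21598 without plate 6 of day 9 and 20 of 21433 without its unnumbered library. Without plate 2, 5 or 6 of day 11 it was 105 of 21297, 283 of 21485 or 213 of 21479. On day 20 against day 9, 3 were called higher, NKX2-5, MEF2C and IRX4 (6.72% of 21207 genes), and 1 was called lower, GATA6 (3.31%). This count of 3 fell to 1 without plate 2 or plate 6 of day 9. Over all genes, 146 of 23408 and 403 of 22850 were then called higher, against 1425 with all 6 libraries. On day 20 against day 11, IRX4 alone was called higher (1.12% of 21398 genes). No member was called lower then by edgeR (0.435% of genes), with 1 at an unadjusted p under 0.05, and DESeq2 called 1. The count of 1 held without plate 6 of day 20 and fell to 0 when any other library was left out. Over all genes, 0 of 22960, 23385 or 23077 were called higher without plate 2, 5 or 6 of day 11, against 239 with all 6 libraries. Without plate 2, library 2_3 or plate 6 of day 20 the number was 76 of 22831, 355 of 21682 or 281 of 23069. Against day 4, all 10 members were higher on day 11 (23.1% of 21187 genes) and on day 20 (17.6% of 22024 genes). These comparisons share libraries.

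**Figure D3:**
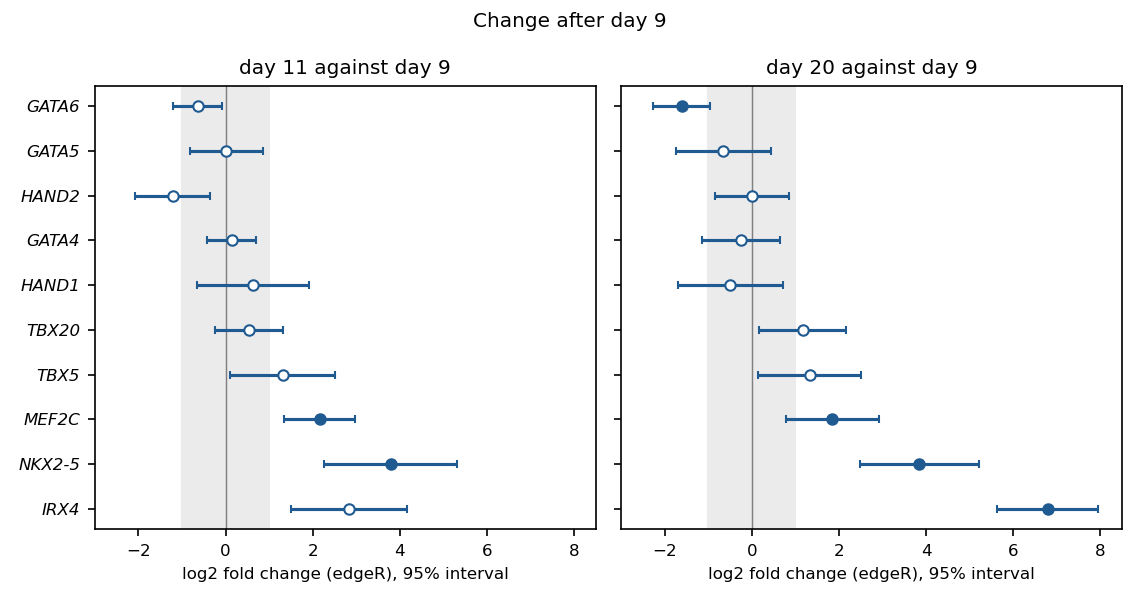
log2 fold change of each member from edgeR on day 11 and on day 20 against day 9, with 95% intervals (3 libraries per day); filled points passed an adjusted p of 0.05 and the grey band spans -1 to 1. The intervals of NKX2-5 lie above 2 in both comparisons, and those of GATA4 and GATA5 lie within the band on day 11 and pass its lower edge on day 20.

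The GATA factors, zinc finger proteins that bind the letters GATA, were at or near their highest level on day 9. GATA4 (chr8:11676959-11760002), a partner of NKX2-5 and TBX5, stood at 189, 137 and 138 TPM on day 9, at 223, 184 and 132 on day 11 and at 209, 124 and 103 on day 20. The 3 days overlapped, and the log2 fold change was 0.14 (95% interval -0.42 to 0.71) on day 11 and -0.25 (-1.14 to 0.64) on day 20, both against day 9. Without library 2_3 the latter was -0.03. GATA5 (chr20:62463497-62475995), known for its part in endocardium and valve formation, stood at 114, 60.8 and 103 TPM on day 9, at 144, 87.4 and 65.5 on day 11 and at 85.02, 36.6 and 71.6 on day 20. Its days overlapped as well, with a log2 fold change of 0.02 (-0.83 to 0.86) on day 11 and -0.65 (-1.73 to 0.43) on day 20.

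GATA6 (chr18:22169589-22202528), which acts in cardiac mesoderm and in endoderm, was the one member that fell. It stood at 201, 129 and 168 TPM on day 9, at 136, 109 and 92.6 on day 11 and at 60.9, 66.8 and 59.3 on day 20. Every library of day 20 was below every library of days 9 and 11, whereas days 9 and 11 overlapped. The log2 fold change on day 20 against day 9 was -1.61 ± 0.28 (SE), with an edgeR adjusted p of 0.0167. The call was lost without plate 2 of day 9 (adjusted p = 0.099 from edgeR) or without the day 9 library that has no plate number (0.0898), over a range from 9.23e-06 to 0.108 in all alternatives. The antisense gene GATA6-AS1, whose exons overlap those of GATA6, moved the same way, at 267, 176 and 150.1 TPM on day 9 and 39.5, 76.5 and 50.01 on day 20 (log2 fold change -2.07 ± 0.31, edgeR adjusted p = 0.0107). How strand was handled in the counting is not given in the sources used here, so reads of a member and of an overlapping antisense gene may not be told apart. The summed endoderm and yolk sac markers ran 17169, 669 and 20255 TPM in the libraries of day 20, between which GATA6 spread 1.13-fold. Most of that sum was AFP, at 13772, 516 and 14210 TPM. Of the 9 markers, 1 was called higher and 1 lower on day 20 than on day 9 (6.72% and 3.31% of all genes), with a median of -0.24. Their day means went both ways. FOXA2 averaged 73.0 TPM on day 9 and 30.3 on day 20. On the same days APOA1 averaged 412 and 1816 TPM, APOA2 111 and 980, and TTR 110 and 316. The part of endoderm cells in the fall of GATA6 was not tested.

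NKX2-5 (chr5:173232109-173235311), the homeobox factor of committed cardiac progenitors, was on by day 9 and rose further by day 11. It stood at 11.2, 11.9 and 28.9 TPM on day 9, at 204, 459 and 100.2 on day 11 and at 411, 318 and 135 on day 20. Every library of day 11 was above every library of day 9, and days 11 and 20 overlapped. The log2 fold change was 3.79 ± 0.65 (SE) on day 11 against day 9, with an edgeR adjusted p of 0.0346, and 3.85 ± 0.58 on day 20 against day 9 (0.0106), a call that was lost without plate 2 (0.0711) or plate 6 (0.0505) of day 9. On day 20 against day 11 it was 0.05, with a 95% interval from -1.28 to 1.37. With 1 library left out the rise to day 11 stayed between 3.07 and 4.39, and its adjusted p reached 0.181 without plate 2 of day 9, 0.0939 without the unnumbered library of day 9, 0.0839 without plate 2 of day 11 and 0.0665 without plate 6 of day 9, by edgeR. With no filter on low counts it was 0.191, in a range from 9.5e-10 to 0.191 over all alternatives.

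MEF2C (chr5:88717117-88904257), a MADS-box activator of muscle genes, was likewise on by day 9 and rose further by day 11. It stood at 10.6, 9.84 and 11.6 TPM on day 9, at 47.3, 76.9 and 27.2 on day 11 and at 60.4, 57.9 and 16.3 on day 20. The lowest library of day 11 was above the highest of day 9, and days 11 and 20 overlapped. The log2 fold change was 2.17 ± 0.35 (SE) on day 11 (edgeR adjusted p = 0.0287) and 1.85 ± 0.45 on day 20 (0.0445), both against day 9. The adjusted p of the rise to day 11 reached 0.148 without plate 2 of day 9, 0.12 without its unnumbered library, 0.0562 without its plate 6 and 0.0818 without plate 2 of day 11, in a range from 2.3e-07 to 0.148. The call on day 20 held only without plate 6 of day 20 among the 6 libraries left out, and its adjusted p was 0.0599 without library 2_3. Exons of MEF2C-AS1 and MEF2C-AS2 overlap MEF2C, and MEF2C-AS1 was at 6.85 TPM or less in every library.

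The T-box factors both had higher means on later days but were not called by the edgeR fit of 6 libraries. TBX5 (chr12:114353911-114408442), which is needed for the left ventricle and for atrial septation, stood at 31.7, 9.86 and 23.5 TPM on day 9, at 72.1, 72.4 and 28.4 on day 11 and at 63.4, 103 and 32.7 on day 20. Its highest day 9 library was above the lowest of day 11, and the log2 fold change was 1.31 (95% interval 0.10 to 2.52) on day 11 and 1.33 (0.15 to 2.52) on day 20, with edgeR adjusted p of 0.254 and 0.145. Over the alternatives these ran from 0.000728 to 0.624 and from 0.0456 to 0.339, and each passed the threshold in 1 alternative, the day 20 value with all 15 libraries in one fit. Exons of TBX5-AS1 overlap TBX5, and TBX5-AS1 stood at 17.6 TPM in library 2_3 and at 6.19 TPM or less elsewhere. TBX20 (chr7:35202430-35254100), a regulator of chamber growth, stood at 191, 123 and 217 TPM on day 9, at 249.8, 388 and 177 on day 11 and at 619, 542 and 223 on day 20. Every library of day 20 was above every library of day 9, and the log2 fold change was 0.54 (-0.24 to 1.31) on day 11 and 1.17 (0.16 to 2.18) on day 20, with adjusted p of 0.475 and 0.135 from edgeR. TBX20 was the highest member on day 20, at 461 ± 210.0 TPM (SD, n = 3), and ranked 197 of 18894 protein-coding genes.

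The HAND factors, related helix-loop-helix proteins of the left and right ventricle, shared their onset day, and neither was called by the edgeR fit of 6 libraries between days 9, 11 and 20. HAND1 (chr5:154474972-154478227) stood at 339.8, 556 and 248 TPM on day 9, at 589, 205 and 999.8 on day 11 and at 169, 201 and 499.7 on day 20. It spread 4.89-fold between the libraries of day 11, and all 3 days overlapped. Its log2 fold change was 0.63 (95% interval -0.65 to 1.91) on day 11 and -0.49 (-1.70 to 0.71) on day 20. HAND2 (chr4:173524969-173530229) stood at 176, 99.7 and 167 TPM on day 9, at 101, 47.1 and 53.6 on day 11 and at 209.5, 150.2 and 143 on day 20. Its day 11 libraries lay below all those of day 20 and overlapped day 9 by a single library. The log2 fold change was -1.21 ± 0.37 (SE) on day 11 against day 9 (edgeR adjusted p = 0.148) and 1.21 ± 0.38 on day 20 against day 11 (0.16), so neither step passed the threshold. DESeq2 called the first step, with an adjusted p of 0.0223, in a range from 0.00202 to 0.427 over the alternatives. Exons of HAND2-AS1 overlap those of HAND2. HAND2-AS1 stood at 5.79, 4.49 and 4.32 TPM on day 11 and at 42.6, 39.7 and 20.6 on day 20, and was called higher on day 20 than on day 11 (log2 fold change 2.67 ± 0.32, edgeR adjusted p = 0.0173).

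IRX4 (chr5:1877413-1887236), an Iroquois homeobox factor of ventricular muscle, came last. It stood at 1.93, 2.68 and 1.84 TPM on day 4, at 1.44, 0.976 and 1.11 on day 9, at 4.06, 16.6 and 5.84 on day 11 and at 152, 248 and 68.7 on day 20. Every library of day 9 was below those of day 4, every library of day 11 above those of day 9, and every library of day 20 above those of day 11. The fall to day 9 was small, with a log2 fold change of -0.85 ± 0.31 (SE) and an edgeR adjusted p of 0.047, where 24.7% of genes were called lower, and it rested on 58 reads in all on day 9 against 122 on day 4. Its adjusted p lay between 0.0376 and 0.207 in the alternatives, with DESeq2 at 0.0652. IRX4 was called higher on day 11 than on day 4 (1.98 ± 0.52, edgeR adjusted p = 0.0146), which set its onset at day 11. Without plate 1 or plate 5 of day 4 that adjusted p was 0.0594 or 0.0599, and the onset moved to day 20. The log2 fold change was 2.83 ± 0.57 on day 11 against day 9 (0.0522, not called), 3.94 ± 0.62 on day 20 against day 11 (0.0303) and 6.79 ± 0.50 on day 20 against day 9 (0.00215), by edgeR. Alternatives that called the first of these included DESeq2 (2.81e-05), no filter (0.00414), all 15 libraries in one fit (0.00702) and leaving out plate 5 of day 11 (0.045), in a range from 2.81e-05 to 0.193 over the alternatives. The step from day 11 to day 20 had an adjusted p of 0.161, 0.0734 and 0.172 without plate 2, 5 or 6 of day 11 and of 0.0527 and 0.0536 without plate 2 or library 2_3 of day 20. Its log2 fold change in these fits stayed between 3.57 and 4.70, and the fits without a library of day 11 called 0 genes higher. The call on day 20 against day 9 held in every alternative run. IRX4-AS1, a neighbouring noncoding gene, stood at 0.401, 3.63 and 1.503 TPM on day 11 and at 43.95, 112 and 16.9 on day 20, and was called higher on day 20 than on day 9 (log2 fold change 6.64 ± 1.04, edgeR adjusted p = 0.012).

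On days 9, 11 and 20 most members were lowest in plate 6, whereas HAND1 was highest there. On day 11, plate 5 was the highest library for NKX2-5, TBX20, MEF2C, TBX5 and IRX4 and the lowest for HAND1 and HAND2, and plate 6 was the lowest for GATA4, GATA5, GATA6, NKX2-5, TBX20, MEF2C and TBX5 and the highest for HAND1. The summed cardiomyocyte markers ran 5826, 20975 and 3766 TPM in plates 2, 5 and 6, and the summed mesenchymal markers 2789, 986 and 6041. On day 20 plate 6 was the lowest library for GATA4, GATA6, NKX2-5, TBX20, MEF2C, TBX5, HAND2 and IRX4 and the highest for HAND1, with cardiomyocyte markers at 21695, 21175 and 4971 TPM and mesenchymal markers at 2492, 1109 and 21724 in plate 2, library 2_3 and plate 6. On day 9 plate 6 had the most cardiomyocyte marker RNA, at 1315 TPM against 434 and 196, and was the lowest library for 8 of the 10 members, GATA4, GATA5, GATA6, TBX5, TBX20, MEF2C, HAND2 and IRX4. MYL7 alone held 1179 TPM of that sum. TNNT2, ACTN2 and TNNI1 were also highest there, while MYH6 differed little (17.0, 18.7 and 17.3 TPM) and NPPA was lowest. The same library had the most mesenchymal (1890 against 585 and 595 TPM) and endoderm and yolk sac marker RNA (1390 against 627 and 502 TPM). With TPM recomputed without the gene of the shortest implied length, NKX2-5 too was lowest in plate 6 of day 9. It stood at 11.9 TPM there, against 13.5 and 29.3. The part of other cell types in these spreads was not tested.

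**Figure D4:**
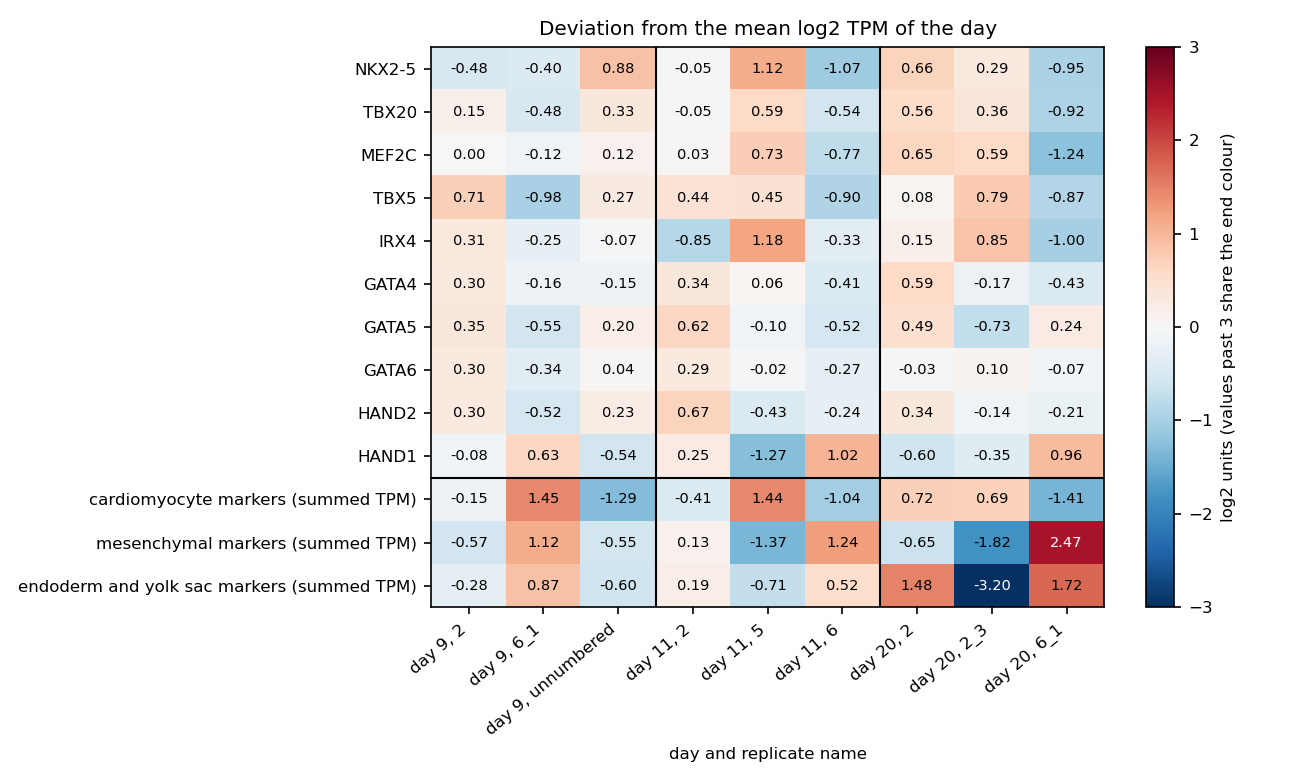
Deviation of each library from the mean log2 TPM of its day for the 10 members (above the line) and for the summed TPM of 3 marker lists (below it), by day and replicate name. On day 11, NKX2-5 stood 1.12 above the day mean in plate 5 and 1.07 below it in plate 6, whereas HAND1 stood 1.27 below and 1.02 above it.

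Other genes of the same families were counted too. Of 32 paralogs of the members, 23 were tested on day 9 against day 4, and 15 were called higher and 2 lower (24.3% and 24.7% of all genes), with a median log2 fold change of 4.73. NKX2-6, a relative of NKX2-5, was at 0.21 ± 0.0489 TPM on day 4 and 93.2 ± 55.9 on day 9 (SD, n = 3), and TBX3, a T-box repressor of the chamber programme, went from 0.364 ± 0.167 to 73.3 ± 4.64 TPM. The Iroquois genes differed among themselves, since IRX2 was called lower on day 9 (log2 fold change -2.85 ± 0.25, edgeR adjusted p = 7.62e-05) and IRX3 higher (2.90 ± 0.55, 0.00371). On day 20 against day 9, 2 of 25 paralogs were called higher and 4 lower, where 6.72% and 3.31% of all genes were, so the share higher was near that of all genes. The median was -0.64. MEF2A, a relative of MEF2C, was among the former, at 40.9 ± 6.59 TPM on day 9 and 181 ± 72.7 on day 20 (log2 fold change 1.94 ± 0.32, edgeR adjusted p = 0.0137). The neighbouring noncoding genes were few, and of the 6 of 10 listed that were found, 4 were tested on day 9 against day 4 and all 4 were higher.

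Partners and targets of the members were counted in the same fits. Of 13 cardiac partners and cofactors, 11 were called higher on day 9 than on day 4 (24.3% of all genes tested), with a median log2 fold change of 5.63. On day 11 against day 9, 1 was called higher (1.39% of all genes), SMYD1, a methyltransferase of muscle (log2 fold change 2.72 ± 0.52, edgeR adjusted p = 0.0482). On day 20 against day 9, 3 were higher and 1 lower (6.72% and 3.31% of all genes). ANKRD1, a cardiac ankyrin repeat protein, had the highest day mean of the list, at 470.5 ± 351 TPM on day 9 and 1474 ± 1429.5 on day 11 (SD, n = 3). Of 16 target genes of the heart muscle programme, 14 were tested on day 9 against day 4, with 7 called higher and 1 lower (24.3% and 24.7% of all genes) and a median of 1.94. On day 11 against day 9, 8 of 15 were called higher (1.39% of all genes) with a median of 3.28, and on day 20 against day 9, 14 of 16 (6.72%) with a median of 4.09, beside 0.10 for all genes and 0.59 for the 10 members. MYH6, the atrial myosin heavy chain, was at 17.7 ± 0.931 TPM on day 9 and rose by 8.09 ± 0.87 on the log2 scale by day 11 (edgeR adjusted p = 0.0147).

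The genes most alike each member over the 15 libraries were sought among 11607 protein-coding genes, by Pearson's r of log2(TPM + 1). This likeness includes the step between days 4 and 9, whose share in it was not measured, and it is given as a description. MEF2C was most like RCSD1 (r = 0.998), UNC45B (0.995), a myosin chaperone, and MYOCD (0.994), the coactivator myocardin. NKX2-5 was most like KCNJ5 (0.989), an inward rectifier potassium channel, GMPR (0.988) and CAMK2A (0.986), and TBX5 was most like MYLK3 (0.988), the cardiac myosin light chain kinase, TRIM55 (0.987) and CBX8 (0.987). GATA6 was most like MEIS1 (0.995), WLS (0.992) and BAHCC1 (0.991), TBX20 was most like MEIS2 (0.993), ALPK2 (0.992) and YAF2 (0.991), and HAND2 was most like HEY1 (0.994), SERTAD2 (0.991) and CCDC92 (0.988). GATA4 was closest to RAI1 (0.995), RHOBTB3 (0.994) and TNRC18 (0.994), GATA5 to RAI1 (0.989), IER5L (0.987) and RHOBTB3 (0.987), and HAND1 to PRDM6 (0.992), ARHGAP6 (0.991) and NBPF15 (0.990). IRX4 stood apart, closest to GJA3 (0.991), CCDC9B (0.986) and ADPRHL1 (0.983). Among the members themselves GATA4 and GATA6 were most alike (r = 0.990), followed by GATA4 and TBX20 (0.987) and NKX2-5 and MEF2C (0.986), and the least alike were GATA6 and IRX4 (0.345).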

How the data were processed

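Bulk RNA-seq of H1 cells was analysed for 5 days with 3 libraries each, grouped by the labels. The authors prepared stranded total RNA libraries and mapped the read pairs to GRCh38 with STAR 2.5.2b. Genes for ribosomal RNA and the mitochondrial genes were taken out, and the authors deposited unnormalized counts made with featureCounts 1.5.1. The TPM values were derived by the authors from the counts, with gene lengths that the sources used here do not give. The deposited annotation of the samples gives RNA integrity as a score, unique mapping as a fraction, and other fields such as the lane. The labels call the 3 libraries of a day biological replicates, and nothing says that each came from its own differentiation, so p-values measure the spread between these libraries.

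Symbols and coordinates come from GENCODE v44 (46872 of 48777 identifiers matched). The tests used edgeR 4.0.16 (R 4.3.3) with filterByExpr (lowest count 10, lowest total 15), TMM factors and a robust quasi-likelihood fit of the 6 libraries of the 2 days compared. Tests were two-sided, p-values were adjusted by Benjamini-Hochberg across every gene in the fit, and 0.05 was the threshold. Each SE is the log2 fold change over the square root of F, and intervals are 95%. Depth was 11990302 to 33469703 counts per library. The methods were tested on simulated data. The alternatives were DESeq2 1.42.0, upper-quartile factors, library size alone, no filter, a joint fit of all 15 libraries, limma 3.58.1 on log2(TPM + 1) or log2(TPM + 0.1), a block for the plate, leaving out each replicate, onset at 0.5 or 5 TPM, a plateau bound of 0.5, and TPM without the gene of the shortest implied length.

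All 10 members are described. From each further list, the count called and up to 5 genes with the highest day mean could be named, plus genes beside a member's result, and for each member the 3 most alike genes with a highest day mean of at least 10 TPM. The members and lists were chosen with earlier results of these data known.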

Additional observations from a re-analysis of the deposited data

How the results depend on the processing

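The count of members higher on day 9 than on day 4, and of members with onset by day 9, was 9 in every alternative run, and no member was called between days 4 and 0 in any. Against day 4 the count was 10 on day 20 in every alternative run, and 9 to 10 on day 11. With 1 replicate left out, the count of members higher on day 11 than on day 9 ran from 0 to 3, on day 20 than on day 11 from 0 to 1 and on day 20 than on day 9 from 1 to 3, and the count at plateau on day 9 from 0 to 1. Over all genes, the number called higher in these comparisons ran from 0 to 287, from 0 to 355 and from 146 to 2380. With all 15 libraries in one fit, 2 members were higher on day 20 than on day 11 and 1, GATA4, was at plateau. Either limma fit also put GATA4 at plateau. Members that were not called changed sign in some alternatives, for which the cause was not tested. GATA5 on day 11 against day 9 was -0.0185 with upper-quartile factors and -0.0072 with library size alone. HAND2 on day 20 against day 9 was -0.0111 with DESeq2, -0.027 with library size alone, -0.22 with no filter and -0.0104 with all 15 libraries in one fit. With 1 replicate left out the log2 fold change ran from -0.0367 to 0.365 for GATA4 and from -0.35 to 0.24 for GATA5 on day 11 against day 9, and from -0.30 to 0.20 for HAND2 on day 20 against day 9. All 50 member levels by day moved by less than 1 SD (n = 3) when TPM was recomputed without the shortest gene. That gene takes up to 20.0% of TPM in a library, and 16.97% in plate 2 of day 9. Without it, the percent of the highest day mean reached on day 9 rose for every member other than GATA6. It went from 93.3% to 99.8% for GATA5 and from 86.1% to 92.1% for GATA4. The order of the members by this percent did not change.

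With the plate number as a block, for plates that both days share, 5 members were higher on day 11 than on day 9, 0 on day 20 than on day 11, 2 on day 20 than on day 9 and 9 on day 11 than on day 4. A library whose plate the other day lacked formed its own block and added nothing to the fold change. The block fit of days 9 and 11 therefore rests on 2 pairs. In the fits of day 20, library 2_3 was put in the block of plate 2. Over all genes the block called 1171 of 20679 higher and 800 lower on day 11 than on day 9, against 288 and 207 without it. In the other comparisons, in the same order, it called 2 of 21398, 356 of 21207 and 4317 of 21187 genes higher. The block called TBX5 (adjusted p = 0.000728), HAND1 (0.00614) and IRX4 (0.012) higher and HAND2 (0.00202) and GATA6 (0.0371) lower on day 11 than on day 9, by edgeR, and lost the call of GATA6 (0.108) and MEF2C (0.187) on day 20 against day 9 and of IRX4 on day 20 against day 11 (0.0587) and on day 11 against day 4 (0.0818). Deviations of same-plate libraries from their day means correlated across genes at 0.147 (plate 2) and 0.377 (plate 6) for days 9 and 11, at -0.144 to 0.207 for days 9 and 20 and at -0.142 to 0.371 for days 11 and 20. With pairs below 0.1, and only 2 pairs for days 9 and 11, the numbers were not taken to pair the samples. Day 4 holds few reads for most members (3 for TBX5), which limits every fold against it.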
